A study of Homo sapiens with 11 samples.

Results

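Tamoxifen was set directly against knockdown of nemo-like kinase (NLK) in T47D-TamR, an estrogen receptor positive human breast cancer line made resistant by continuous passage in tamoxifen. The comparison takes 3 of the 11 libraries of the series, all from T47D-TamR. The tamoxifen library came from cells given a non-targeting control siRNA pool together with 0.5 µM tamoxifen. It was set against 2 knockdown libraries, 1 for each of 2 siRNAs against NLK, called type 1 and type 2 in the labels. The control siRNA library without tamoxifen takes no part in the contrast, because the change of its values with the GC content of transcripts is unusual. The members were taken by their labels, and leaving out that library rests on its measured values. All 3 cultures had been held without estrogen for 48 h and were then transfected at 10 nM for 72 h. Other libraries of T47D-TamR were treated without siRNA, with DMSO and 0.5 µM tamoxifen, 0.5 µM VX-702, or DMSO alone. The same 4 siRNA conditions were run in BT483, a breast ductal carcinoma line. Every condition had 1 library, and T47D-TamR is a single resistant line that is propagated in tamoxifen, so both sides of the contrast came from cells with long exposure to the drug.

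NLK, an atypical relative of the MAP kinases, phosphorylates serines and threonines and is known for acting on transcription factors of the Wnt and Notch pathways and on FOXO1. Tamoxifen competes with estradiol for the estrogen receptor and in breast cells lowers the transcription of receptor targets. In estrogen receptor positive cells these targets drive entry into the cell cycle. Short RNA duplexes such as siRNAs guide the cleavage of a matching mRNA, and they can also be sensed as foreign RNA and switch on interferon-stimulated genes.

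The siRNAs are shown first, because the knockdown side of the contrast is defined by them. Each line gives the guide strand complementary to the NLK mRNA from 5′ to 3′, with bases 2 to 8, the seed, in capitals.
siRNA 1 guide: uCUUGGAUcuguuacugac
siRNA 2 guide: uAGUCUUCaaauucagcuc
NLK spans chr17:28041737-28196381 (GRCh38, GENCODE 29). The site of siRNA 1 lies at chr17:28122603-28122621 on the plus strand (GRCh38), in exon 2 of 11 of the NLK transcript, in its coding sequence. The site of siRNA 2 lies at chr17:28196045-28196063, in exon 11, in the 3′ untranslated part. Neither 19-base site occurs in a transcript of another gene in GENCODE 29. That type 1 and type 2 of the labels are siRNA 1 and siRNA 2 of the protocol was read from the numbers alone.

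NLK mRNA separated the sides of the contrast as the labels say. It had 28.6 CPM (counts scaled to library size with TMM factors) in the tamoxifen library, against 10.2 CPM with type 1 and 11.95 CPM with type 2. These came from 763 counts with tamoxifen, 257 with type 1 and 281 with type 2. The tamoxifen level was 281% of that with type 1 (exact 95% interval 243 to 325) and 239.5% of that with type 2 (209 to 276). The intervals cover counting error only. NLK in the 4 remaining T47D-TamR libraries ran from 28.0 to 33.2 CPM, so both knockdown libraries lay below every other library of the line.

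The 11 libraries held 14637083 to 26915863 counts, and the 3 of the contrast 23716207 to 26849956. At that depth 3 counts, the floor below which a level was not told from 0, equal 0.113 to 0.128 CPM. Luminal markers were abundant in all 3: KRT8 had 2439 CPM with tamoxifen, against 2089 CPM with type 1 and 2257 CPM with type 2, and GATA3 had 609 CPM with tamoxifen, against 478 and 582 CPM with type 1 and type 2. The 18 leukocyte and endothelial genes summed to 5.93 CPM with tamoxifen, against 4.41 and 8.64 CPM with the siRNAs. Among them PTPRC, CD3E, CD68, PECAM1 and CDH5 had 0 counts in the tamoxifen library. Of the 8 that were tested, 3 had a positive log2 fold change and 3 a negative one. The endothelial gene VWF had one of 0.82 (SE 1.04) in a fit with offsets for GC content and length. Differences followed GC content. Over the 15156 genes with a mean of at least 1 CPM and a known transcript, the median log2 fold change was -0.13 in the lowest of 5 equal groups by GC content and 0.07 in the highest. In the lowest group 53.03% of genes stood below both knockdown libraries in the tamoxifen library, and in the highest 21.1%. Against the control siRNA library the same medians were -0.45 and 0.25. With offsets for GC content and length the 5 medians ran from -0.02 to -0.01.

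**Figure D1:**
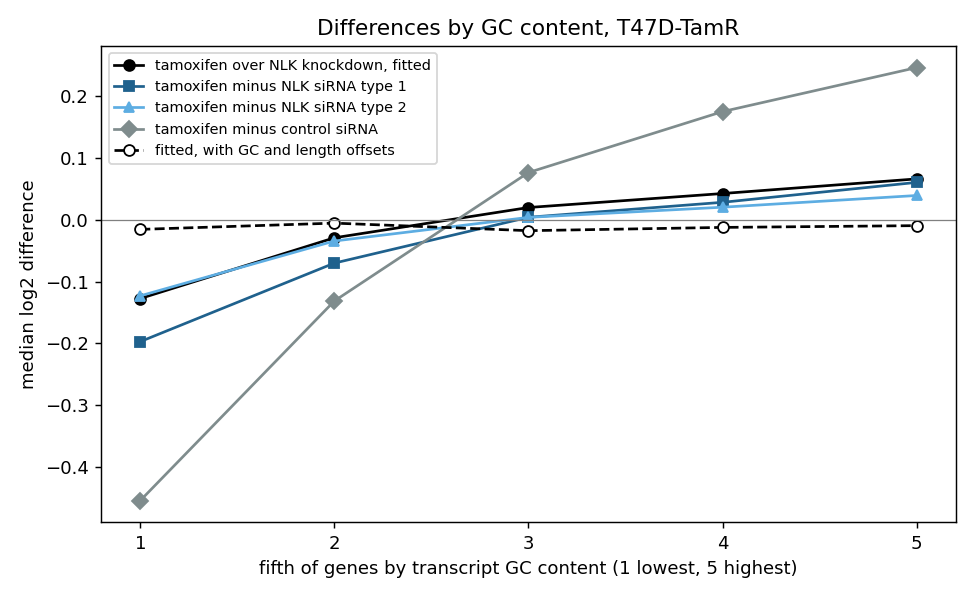
Median log2 difference (vertical axis) of genes in 5 equal groups by transcript GC content (horizontal axis) in T47D-TamR. The fitted medians run from -0.13 to 0.07 from the lowest to the highest group against the knockdown libraries and from -0.45 to 0.25 against the control siRNA library, and the dashed line shows the fit with offsets for GC content and length.

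No gene passed the test of tamoxifen against NLK knockdown. Over 23897 genes edgeR's quasi-likelihood test, adjusted by Benjamini-Hochberg, called 0 genes (0.00%) at an adjusted p of 0.05. The smallest adjusted p was 0.194. DESeq2 called 1 gene and limma on the authors' log2 TPM table called 0. At an unadjusted p under 0.05 there were 578 genes (2.42%), 256 of them higher with tamoxifen (1.07%) and 322 lower (1.35%). The tamoxifen group has a lone library, whose spread was taken from the siRNA pairs of both lines. The labels do not say that libraries came from separate experiments, and a p-value here reflects no more than the spread among these libraries, which may be technical. With an added coefficient for the siRNA the same test called 30 genes, without a filter on low counts 15, and without the type 2 library 8. NLK itself passed with the coefficient (adjusted p = 0.000126) and without the filter (adjusted p = 0.00598). The coefficient takes the difference between the siRNA types as equal in both lines and removes it from the spread. It leaves fewer residual degrees of freedom than the 2 of the main fit, so passes with it rest on less spread. Levels below are described by where the tamoxifen library stood against both knockdown libraries. Of all genes tested 25.8% stood above both and 32.4% below both. Fewer cells of a kind and less RNA per cell cannot be told apart in bulk RNA.

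Among genes above both knockdown libraries, the smallest p belonged to AL591846.1, a processed pseudogene on chromosome 1 from 206695837 to 206696269 (GRCh38, GENCODE 29). It had 1196 counts with tamoxifen, against 211 with type 1 and 74 with type 2, and its log2 fold change was 2.99 (SE 0.47, adjusted p = 0.688 by edgeR). Its level was 44.9 CPM with tamoxifen and 1.62 to 8.81 CPM in the other 10 libraries of the series. Reads of a processed pseudogene can be shared with its parent gene, so its count is uncertain. It was the gene called by DESeq2, with an adjusted p of 0.0369. NLK followed, with a log2 fold change of 1.40 (SE 0.29).

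TP53INP1, a p53-induced protein of autophagy and cell death, had 101 CPM with tamoxifen, against 55.6 CPM with type 1 and 51.8 CPM with type 2. Its log2 fold change was 0.95 (SE 0.20). BCAS1, a gene amplified in breast cancer, had 14.4 CPM with tamoxifen, against 5.24 and 7.61 CPM with type 1 and type 2. NDRG1, a stress and hypoxia response gene, had 64.1 CPM with tamoxifen, against 35.8 and 37.8 CPM. GHR, the growth hormone receptor, had 55.4 CPM with tamoxifen, against 22.5 and 33.8 CPM. The knockdown libraries lay close together for TP53INP1 and NDRG1 and further apart for GHR.

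CASP14, a caspase of epidermal differentiation, had 36.9 CPM with tamoxifen, against 21.8 and 18.0 CPM with type 1 and type 2. DBT, a subunit of the branched-chain keto acid dehydrogenase, had 40.8 CPM with tamoxifen, against 23.6 and 22.3 CPM. Log2 fold changes over the genes from TP53INP1 to DBT, YPEL3 and the tight junction protein TJP3 ran from 0.78 (SE 0.22, TJP3) to 1.20 (SE 0.27, BCAS1), each with an adjusted p of 1. GHR and DBT had 65.1 and 46.9 CPM in the control siRNA library, above their tamoxifen values of 55.4 and 40.8 CPM. VCX3A, of a family of near-identical testis genes among which reads may be split, had 19.1 CPM with tamoxifen, against 8.57 and 4.47 CPM. RAMP1, a receptor activity modifying protein, had 12 counts with tamoxifen, against 0 in each knockdown library. That is at least 3.53-fold higher than the floor of 3 counts in either knockdown library. It reached the minimum level for named genes only through libraries outside the contrast, and a fit of the 3 libraries alone filtered it out. Its log2 fold change was 6.46 in the main fit and 1.28 by limma. With the siRNA coefficient AL591846.1, TP53INP1, BCAS1, GHR, VCX3A and RAMP1 passed the test, with adjusted p-values of up to 0.0175 by edgeR.

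The genes below both knockdown libraries included well-expressed genes and genes near the floor. RANBP2, a giant nucleoporin encoded at chr2:108719481-108785811, had 28.3 CPM with tamoxifen, against 54.6 CPM with type 1 and 50.7 CPM with type 2 (log2 fold change -0.87, SE 0.22). KIAA1109, now known as BLTP1 and thought to carry lipids between membranes, had 29.1 CPM with tamoxifen, against 49.1 and 53.6 CPM. JMJD1C, a histone demethylase family member, had 15.6 CPM with tamoxifen, against 28.1 and 31.3 CPM. These 3 have long transcripts of low GC content: 39.2% for RANBP2, 41.3% for KIAA1109 and 39.9% for JMJD1C. With offsets for GC content and length their log2 fold changes were -0.72, -0.64 and -0.79. In the untransfected pair they were lower with tamoxifen as well, as RANBP2 had 42.9 CPM with DMSO and tamoxifen, against 81.7 CPM with DMSO.

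BIRC3, an inhibitor of apoptosis and a target of NF-κB encoded at chr11:102317450-102339403, had 3.60 CPM with tamoxifen, against 8.93 and 10.3 CPM with type 1 and type 2 (log2 fold change -1.39, SE 0.40, adjusted p = 1 by edgeR). DISP2, a relative of the Hedgehog exporter DISP1, had 13 counts with tamoxifen, against 49 and 65. The rule also took in genes that are scarce in T47D-TamR and reach its minimum level only through BT483. MUC19, a gel-forming mucin, had 0 counts with tamoxifen, against 11 and 11, so the mean of the knockdown libraries was at least 4.02-fold the floor of 3 counts in the tamoxifen library. MUC19 passed with the siRNA coefficient (adjusted p = 0.0175 by edgeR) and without the filter (0.0373). CAMK2D, SDR16C5 and F2R had 0 counts with tamoxifen as well, against 5 to 11 in each knockdown library. TIGAR, a p53 target that restrains glycolysis, had 2 counts with tamoxifen, against 21 and 9, or 9.003% of type 1 (exact 95% interval 1.02 to 36.8) and 19.6% of type 2 (2.06 to 94.7). None of these scarce genes rests on more than 21 counts in a library of the contrast.

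**Figure D2:**
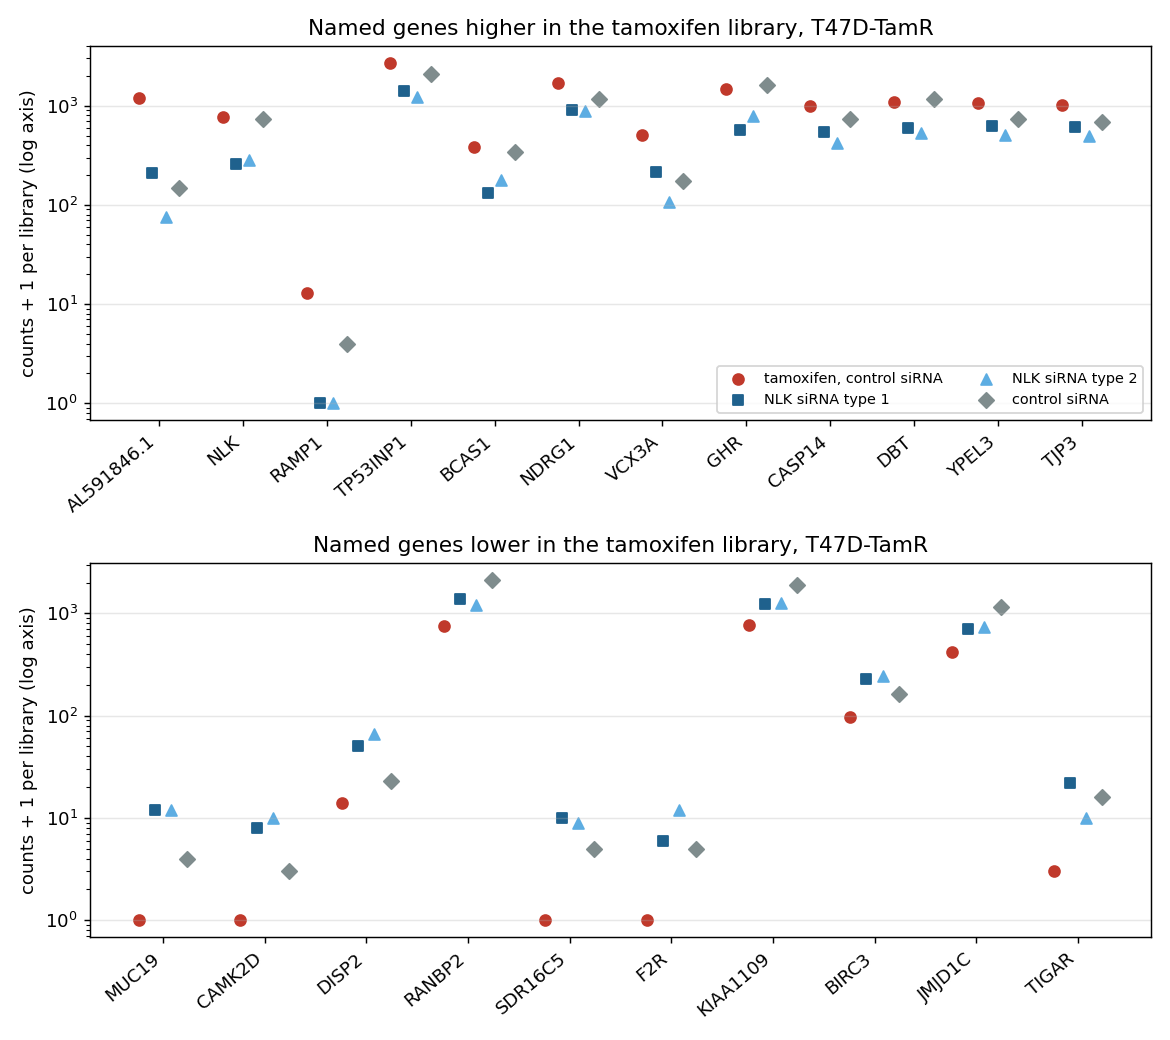
Counts plus 1 (vertical log axis) of the named genes in the tamoxifen library, both NLK knockdown libraries and, for orientation, the control siRNA library of T47D-TamR. The tamoxifen point lies above both knockdown points in the upper panel and below both in the lower, and MUC19, CAMK2D, SDR16C5 and F2R are at 0 counts with tamoxifen.

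Interferon-stimulated genes, the antiviral genes that interferon signalling switches on, were the list whose members lay most uniformly below knockdown. All 39 had a negative log2 fold change, against 51.1% of all genes tested, and 36 stood below both knockdown libraries, against 32.4%. The exceptions were MX2, PARP9 and STAT2, which lay between the siRNAs. The median was -0.96, where that of all genes tested was -0.01. No member was called in the main test. The siRNA coefficient removes from the spread the part of the difference between type 1 and type 2 that both lines share. With the added siRNA coefficient 8 of the 39 members passed, all of them lower with tamoxifen. Of all 23897 genes 30 passed in that fit, 18 of them lower. The 8 members included DDX60L (adjusted p = 4.14e-05 by edgeR), IFIT3 (0.00202), IFIT1 (0.00202) and ISG15 (0.00829). That fit leaves fewer residual degrees of freedom than the main fit. EPSTI1, an interferon-induced gene, was the 1 member past an unadjusted 0.05, with 4.09 CPM with tamoxifen, against 6.15 and 15.3 CPM with type 1 and type 2 (log2 fold change -1.36, SE 0.55). The list's summed level was 3481 CPM with tamoxifen, against 4348 CPM with type 1 and 6941 CPM with type 2, so the siRNAs differed more from each other than type 1 did from tamoxifen. The median log2 difference was -0.39 against type 1 and -1.33 against type 2. In the control siRNA library the sum was 3764 CPM, and without transfection it was 1418 CPM with tamoxifen, 1583 CPM with VX-702 and 1406 CPM with DMSO.

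ISG15, a ubiquitin-like modifier, had 35.6 CPM with tamoxifen, against 64.7 CPM with type 1 and 93.5 CPM with type 2. IFIT3, of the family that binds foreign RNA, had 23.1 CPM with tamoxifen, against 41.5 and 92.3 CPM. DDX60L, an antiviral helicase relative, had 12.2 CPM with tamoxifen, against 21.0 and 57.4 CPM, and the lowest log2 fold change of the list at -1.66 (SE 1.03). MX1, an antiviral GTPase, had 323 CPM with tamoxifen, against 405 and 813 CPM. The sensors IFIH1 and DDX58 (RIG-I) had 22.6 and 31.8 CPM with tamoxifen, against 34.9 and 41.6 CPM with type 1 and 62.2 and 86.9 CPM with type 2. In every one of these genes type 2 was the highest of the 3 libraries, and type 1 lay between it and tamoxifen. BST2, a membrane protein that tethers virus particles, and IFI27 were nearly equal with both siRNAs: IFI27 had 357 CPM with tamoxifen, against 490 and 512 CPM.

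Promoters of these genes carry a shared element, shown for ISG15, whose values are given above. The stretch runs from 250 bases before to 50 after the start of the gene at chr1:1013247-1013546 (plus strand, RefSeq, GRCh38.p14), with matches to GAAA, any 2 bases and GAAA, on either strand, in capitals.
ISG15 promoter: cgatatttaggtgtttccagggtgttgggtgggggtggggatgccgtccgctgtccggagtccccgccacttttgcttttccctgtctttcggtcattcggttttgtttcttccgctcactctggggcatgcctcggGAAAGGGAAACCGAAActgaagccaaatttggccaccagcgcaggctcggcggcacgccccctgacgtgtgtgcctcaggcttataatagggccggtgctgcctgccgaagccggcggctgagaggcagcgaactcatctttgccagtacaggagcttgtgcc
The capitals cover 2 overlapping matches. The motif is the core of the element bound by interferon-regulated factors. It was present in the promoters of 21 of the 31 list members found in RefSeq (67.7%), and in 996 of all 27305 promoters (3.65%). A match describes the letters and not a bound site.

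**Figure D3:**
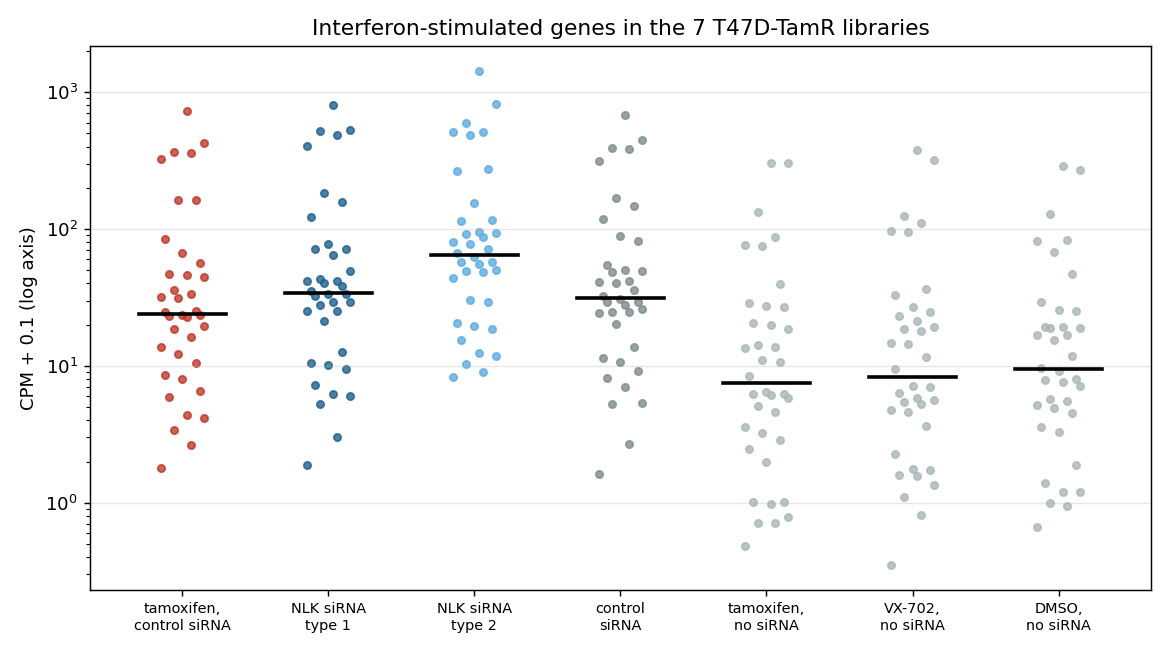
CPM plus 0.1 (vertical log axis) of 38 of the 39 interferon-stimulated genes in each of the 7 T47D-TamR libraries, with 1 point per gene and a bar at the median. The median bar of the tamoxifen library lies below those of both knockdown libraries, and the bars of the 3 libraries without siRNA lie below all 4 with one.

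NF-κB target genes and inflammatory genes lay below knockdown too. Of the 21 tested, 19 had a negative log2 fold change, against 51.1% of all genes tested, and the median was -0.45. Below both knockdown libraries stood 17 of the 21, against 32.4% of all genes tested. CSF1, the macrophage growth factor, had 6.79 CPM with tamoxifen, against 8.57 and 20.5 CPM with type 1 and type 2. TNFAIP3, the deubiquitinase that dampens NF-κB, had 14.2 CPM with tamoxifen, against 17.7 and 34.1 CPM. ICAM1, an adhesion molecule, had 11.2 CPM with tamoxifen, against 19.2 and 19.3 CPM, so here the siRNAs were alike. The control siRNA library had 5.01 CPM for CSF1, 12.5 CPM for TNFAIP3 and 12.3 CPM for ICAM1. SOD2, the mitochondrial superoxide dismutase, stood the other way, at 94.9 CPM with tamoxifen, against 87.1 and 61.0 CPM.

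Genes of an ERK feedback list, which holds inhibitors of the pathway and other genes that it induces, lay in the same order. Of 23 tested, 18 had a negative log2 fold change, against 51.1% of all genes tested, with a median of -0.24. Below both knockdown libraries stood 15 of the 23, against 32.4% of all genes tested. DUSP6, a phosphatase of ERK, had 0.938 CPM with tamoxifen, against 2.02 CPM with type 1 and 4.04 CPM with type 2 (log2 fold change -1.65, SE 0.52). SPRY4, a Sprouty inhibitor of receptor signalling, had 1.84 CPM with tamoxifen, against 3.10 and 7.95 CPM. DUSP4, a nuclear phosphatase, had 10.3 CPM with tamoxifen, against 16.6 and 30.2 CPM, and ETV4, an ETS factor induced by ERK, had 2.36 CPM, against 4.605 and 5.998 CPM. These 4 had unadjusted p-values from 0.0083 to 0.0242 by edgeR and an adjusted p of 1. SPRY4 passed with the siRNA coefficient (adjusted p = 0.0259) and without the filter (0.0418). In each of them type 2 was the highest and tamoxifen the lowest of the 3, and the control siRNA library, from 1.40 CPM for DUSP6 to 9.78 CPM for DUSP4, lay below both NLK siRNAs. CCND1, a G1 cyclin, had 91.8 CPM with tamoxifen, against 100.4 and 112.6 CPM, and MYC had 10.3 CPM with tamoxifen, against 8.65 and 8.34 CPM.

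FOXO targets and luminal genes stood more often above than below knockdown, with larger medians against type 1 than against type 2. Of 17 FOXO targets tested, 12 had a positive log2 fold change, against 46.2% of all genes tested, and the median was 0.23. Above both knockdown libraries stood 8 of the 17, against 25.8% of all genes tested. The median log2 difference was 0.38 against type 1 and 0.09 against type 2, with 13 and 9 of the 17 higher with tamoxifen. PINK1, a kinase of mitochondrial quality control, had 28.8 CPM with tamoxifen, against 15.5 and 18.8 CPM with type 1 and type 2. CCNG2, an atypical cyclin linked to cell cycle arrest, had 42.3 CPM with tamoxifen, against 26.6 and 25.2 CPM. PIK3IP1, an inhibitor of PI3 kinase, had 12.9 CPM with tamoxifen, against 8.42 and 7.95 CPM. IRS2, an insulin receptor substrate, stood the other way at 3 counts with tamoxifen, against 3 and 8, which is at the floor. KLF9, a Krüppel-like factor, had 10 counts with tamoxifen, against 19 and 9. Unadjusted p-values of PINK1, CCNG2 and PIK3IP1 ran from 0.0222 to 0.0364 by edgeR, and the adjusted p was 1. Of 20 luminal genes, 15 had a positive log2 fold change and 10 stood above both (25.8% of all genes tested), with a median of 0.19. Their median log2 difference was 0.18 against type 1 and 0.06 against type 2, with 16 and 12 of the 20 higher with tamoxifen. ERBB3, a receptor kinase also counted among FOXO targets, had 462 CPM with tamoxifen, against 364 and 345 CPM, and KRT19 had 1000.2 CPM, against 759 and 828 CPM. ESR1, the estrogen receptor, had 24.1 CPM with tamoxifen, which lay between 20.4 CPM with type 1 and 31.8 CPM with type 2.

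Among NLK's own pathway genes HIPK2, a kinase placed upstream of NLK in Wnt signalling, had the smallest p after NLK. It had 140.3 CPM with tamoxifen, against 91.2 CPM with type 1 and 94.4 CPM with type 2 (log2 fold change 0.63, SE 0.20, adjusted p = 1 by edgeR). The other T47D-TamR libraries had 125 to 138 CPM, so for HIPK2 the knockdown libraries were the ones that stood apart. FOXO1 and MAP2K6 were also among the members of largest change. With offsets for GC content and length their log2 fold changes were -1.09 (SE 0.61) and 0.94 (SE 0.39). MAPK14, the p38α kinase, had 184 CPM with tamoxifen, against 203 and 162 CPM. The 32 members of the pathway list had a median of -0.01 and split into 15 positive and 17 negative. Wnt targets (18 tested) and Notch targets (13 tested) had 7 and 5 positive members, with medians of -0.12 and -0.19. These are 38.9% and 38.5% of the lists, against 46.2% positive among all genes tested. JAG1, a Notch ligand, had 36.6 CPM with tamoxifen, against 39.98 and 67.6 CPM.

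**Figure D4:**
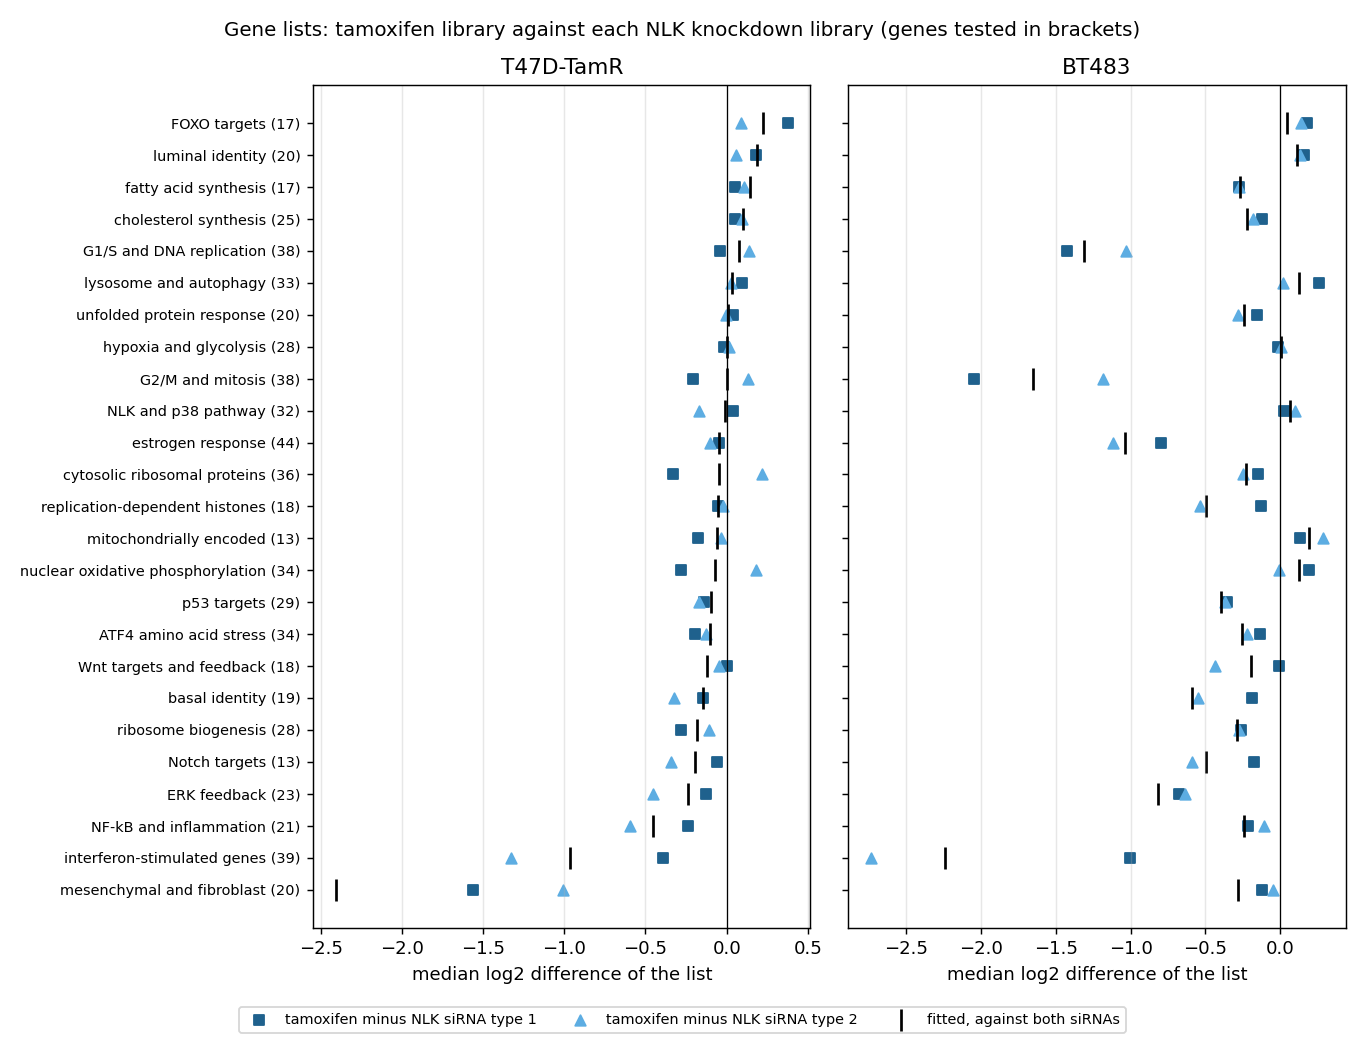
Median log2 difference (horizontal axis) of each gene list between the tamoxifen library and each NLK knockdown library, in T47D-TamR (left) and BT483 (right). Interferon-stimulated genes lie at -0.39 and -1.33 in T47D-TamR, cell cycle lists lie near 0 there and at or below -1.03 in BT483, and black ticks show the fit against both siRNAs.

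Estrogen receptor targets stood on both sides in T47D-TamR. Of 44 tested, 18 (40.9%) had a positive log2 fold change, against 46.2% of all genes tested, and the median was -0.05. Of the 30 with a mean of at least 1 CPM, 13 were positive. All 44 summed to 2219.5 CPM with tamoxifen, against 2227 CPM with type 1 and 2394 CPM with type 2. The members of largest fitted difference were scarce: KRT13 had 0 counts with tamoxifen, against 2 and 2, AGR3 had 0, against 3 and 1, and BCL2, an inhibitor of apoptosis, had 7, against 1 and 0. GREB1, a coactivator of the receptor, had 3 counts with tamoxifen, against 3 and 1, and TFF1, a secreted trefoil peptide, had 0 counts with tamoxifen, against 0 and 1. PGR, the progesterone receptor, had 1 count with tamoxifen, against 13 with type 1 and 20 with type 2, or 7.27% (exact 95% interval 0.171 to 48.4) and 4.41% (0.106 to 27.6). The same genes were well measured in BT483, where GREB1 had 80.04 CPM with tamoxifen, against 564 and 620 CPM with type 1 and type 2 (log2 fold change -2.90, SE 0.26, adjusted p = 0.00219 by edgeR). TFF1 in BT483 had 65.5 CPM with tamoxifen, against 471 and 723 CPM (adjusted p = 0.00903).

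Cell cycle genes had no common direction against both siRNAs in T47D-TamR. Of 38 genes of G1/S and DNA replication, 29 had a positive log2 fold change with a median of 0.08. Of 38 genes of G2/M and mitosis 19 were positive with a median of 0.00. Among all genes tested 46.2% were positive. First of the G1/S list by size of change was CCNE1, with a log2 fold change of -0.73 (SE 0.32) with offsets for GC content and length. MCM3, a replicative helicase subunit, had 352 CPM with tamoxifen, against 275 and 262 CPM. E2F1, a factor that drives S phase genes, had 122 CPM with tamoxifen, against 126 and 99.3 CPM. CENPF, a kinetochore protein, had 37.4 CPM with tamoxifen, against 54.6 and 48.4 CPM. The G1/S median was -0.04 against type 1 and 0.14 against type 2, and the G2/M median -0.21 and 0.13, so the sign depended on the siRNA. In BT483 all 38 genes of each list had a negative log2 fold change, against 51.2% of all genes tested, with medians of -1.31 and -1.65. The difference between lines for E2F1 was 1.96 (SE 0.36, adjusted p = 0.265), with 12.4 CPM with tamoxifen in BT483, against 49.4 and 37.0 CPM.

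Ribosome biogenesis genes lay mostly below knockdown, and metabolic lists had small medians of either sign. Of 28 ribosome biogenesis genes 25 had a negative log2 fold change, against 51.1% of all genes tested, with a median of -0.18. Below both knockdown libraries stood 19 of the 28, against 32.4% of all genes tested. NPM1, a nucleolar chaperone, had 275 CPM with tamoxifen, against 427 and 294 CPM. ATF4 targets of amino acid stress had 25 negative members of 34 and a median of -0.10, and p53 targets 19 of 29 and -0.10. Cholesterol synthesis genes had 16 positive members of 25, where 46.2% of all genes tested were positive, and a median of 0.10. TM7SF2, a sterol reductase, had 231 CPM with tamoxifen, against 190.2 and 190.0 CPM. With offsets for GC content and length 18 were positive, but NPC1L1, first by size of change, had a log2 fold change of -0.87 (SE 0.87). Fatty acid synthesis genes had 13 positive members of 17 and a median of 0.14. ACLY, which makes cytosolic acetyl-CoA, had 663 CPM with tamoxifen, against 514 and 542 CPM. With the same offsets 10 of the 17 were positive, and ME1, first by size of change, had a log2 fold change of -0.46 (SE 0.51). Hypoxia and glycolysis genes, the unfolded protein response and lysosomal genes had medians of 0.00, 0.01 and 0.03.

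Genes of mesenchymal cells marked a difference at trace level. POSTN, a matrix protein of fibroblasts encoded at chr13:37562583-37598844, had 0 counts with tamoxifen, against 130 with type 1 and 85 with type 2. The mean of the knockdown libraries was at least 39.0-fold the floor of 3 counts in the tamoxifen library. Its p was the smallest of all genes tested (adjusted p = 0.194 by edgeR). POSTN passed with the siRNA coefficient (adjusted p = 4.30e-07), without the filter (5.12e-08), without type 1 or type 2 of BT483 (0.00551 and 0.00664) and without type 2 of T47D-TamR (0.00247), and COL1A2 and GREM1 passed in the same 5 fits. COL1A2, a collagen chain, had 6 counts with tamoxifen, against 163 and 96, and GREM1, a BMP antagonist, had 6 counts, against 178 and 112. VIM, an intermediate filament, had 5 counts with tamoxifen, against 57 and 53. SPARC had 2 counts with tamoxifen, against 57 and 45, or 3.32% of type 1 (exact 95% interval 0.392 to 12.5) and 3.92% of type 2 (0.461 to 15.0). The control siRNA library had 33 to 78 counts of these 5 genes. Without siRNA they had at most 10 counts in any library. GREM1 lies outside the lists and, like the others here, was singled out after its values were seen.

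The mesenchymal list as a whole had 24 genes in the files, of which 20 were tested. Of these 5 had a positive log2 fold change, against 46.2% of all genes tested. Below both knockdown libraries stood 14 of the 20, against 32.4% of all genes tested. The fitted median was -2.41, or -1.07 with the 3 genes at 0 on one side set to their bound. COL1A1, the most abundant of the collagens, had 60.7 CPM with tamoxifen, against 58.0 and 59.3 CPM, and ACTA2 had 46.7 CPM, against 59.3 and 58.4 CPM. The list summed to 391 CPM with tamoxifen, against 404 and 466 CPM. COL1A1 was abundant in all 7 T47D-TamR libraries, while POSTN and COL1A2 had at most 10 counts in 4 of the 7. The part of other cells in this difference was not tested.

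**Figure D5:**
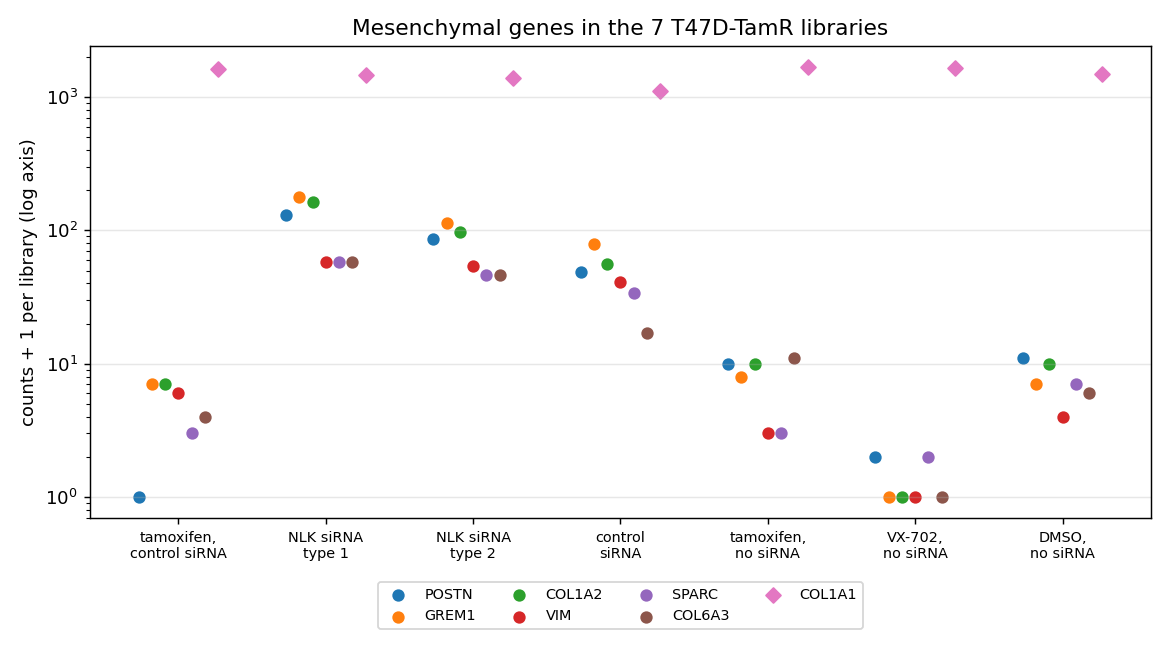
Counts plus 1 (vertical log axis) of 7 mesenchymal genes in each of the 7 T47D-TamR libraries. POSTN, GREM1, COL1A2, VIM, SPARC and COL6A3 have more counts in the knockdown and control siRNA libraries and are near 0 in the other 4. COL6A3 has 16 counts with control siRNA, against 57 and 45 with type 1 and type 2. COL1A1 has 1113 to 1669 counts in all 7.

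Genes on each side of the contrast were looked up in libraries it did not use. Of the 128 genes with a mean of at least 1 CPM that were higher with tamoxifen at an unadjusted p under 0.05, 97 (75.8%) were also higher with tamoxifen than with DMSO in untransfected T47D-TamR cells, where 54.9% of all 15394 such genes were. Of the 133 lower genes, 109 (82.0%) were lower in the untransfected pair, where 45.1% of these genes were, and 46.5% of all 23897. In the untransfected pair NDRG1 had 191 CPM with tamoxifen, against 125 CPM with DMSO, and TP53INP1 122 CPM, against 93.4 CPM. GC content moved in the same direction there, with medians of -0.17 in the lowest GC group and 0.08 in the highest. VX-702 against the same DMSO library, without tamoxifen, had medians of -0.32 and 0.19 in these groups. The part of the DMSO library in these trends was not tested. With offsets for GC content and length on both sides the shares were 92 of 120 (76.7%) against 53.4% for higher genes, and 85 of 116 (73.3%) against 46.6% for lower ones.

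In BT483 the same contrast called 49 genes (0.205%) with edgeR, 43 lower (0.180%) and 6 higher (0.0251%). NLK had a log2 fold change of 2.32 there (adjusted p = 0.0141). NDRG1 had a log2 fold change of 0.83 (SE 0.21) in T47D-TamR. In BT483 it had 1431 CPM with tamoxifen, against 637 and 562 CPM with type 1 and type 2 (log2 fold change 1.24, SE 0.20, adjusted p = 0.0419 by edgeR). AREG, a ligand of the EGF receptor and an estrogen target, had 64.4 CPM with tamoxifen in T47D-TamR, against 86.2 and 86.7 CPM. In BT483 it had 49.3 CPM with tamoxifen, against 230.4 and 256 CPM (adjusted p = 0.00467 by edgeR). CXCL12, a chemokine and estrogen target, had 1 count with tamoxifen in T47D-TamR, against 5 and 2. In BT483 CXCL12 had 0.910 CPM with tamoxifen, against 16.5 and 29.1 CPM (adjusted p = 0.00962 by edgeR). BAMBI, a decoy receptor of TGF-β signalling, had 67.5 CPM with tamoxifen in T47D-TamR, against 66.3 and 50.6 CPM. In BT483 BAMBI had 109.9 CPM with tamoxifen, against 36.9 and 35.4 CPM (adjusted p = 0.0263 by edgeR). PREX1, a Rac exchange factor, had 179 CPM with tamoxifen in T47D-TamR, against 139.5 and 153 CPM. In BT483 PREX1 had 104 CPM with tamoxifen, against 289 and 297 CPM (adjusted p = 0.0302 by edgeR). The difference of the contrast between the lines was 1.92 for AREG (SE 0.29, adjusted p = 0.223). That difference was called for 0 genes (0.00%), with 1000 (4.18%) at an unadjusted p under 0.05. Its smallest adjusted p was 0.0659 for MUC19, which in BT483 had 565 CPM with tamoxifen, against 151 and 159 CPM. Of the genes higher in T47D-TamR at an unadjusted p under 0.05, 86 of 128 (67.2%) were also higher in BT483, where 45.6% of all were, and of the lower ones 76 of 133 (57.1%), where 52.7% were. With offsets these shares were 89 of 120 (74.2%) against 53.4% for higher genes, and 67 of 116 (57.8%) against 45.2% for lower ones. The lines are not independent here. Both were compared with the same NLK siRNAs, and the BT483 siRNA pair entered the spread behind the p-values that picked these genes.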

How the data were processed

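Poly(A) RNA was made into stranded paired-end libraries, per the labels' protocols, and the submitters' processing notes name GRCh38 as the build. Aligner, annotation and strand setting: not given in the sources used here. For 59087 gene symbols the authors deposited raw counts, which carried the main tests. They also deposited log2 TPM values, in a series table whose sorted values differ by at most 0.108 between libraries.

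Groups came from the titles, with 1 library each. The main fit used edgeR 4.0.16 in R 4.3.3 on 10 libraries, all but the T47D-TamR control siRNA library, with TMM factors, filterByExpr, robust quasi-likelihood and the 2 NLK siRNAs of a line as 1 group. It left 2 residual degrees of freedom and a biological coefficient of variation of 0.202. P-values are 2-sided and Benjamini-Hochberg adjusted over 23897 genes in each of 3 tests. DESeq2 1.42.0 and limma 3.58.1 were alternatives. Levels are CPM with TMM factors over 11 libraries, and log2 differences between single libraries use a prior count of 2. Ratio intervals are exact at 95%; they and the 3-count floor cover counting error only. Transcript length and GC content came from GENCODE 29, with values for 97.1% of genes tested. The test was checked on simulated data in which both NLK siRNAs of a line had the same mean. That check therefore does not cover a difference between the siRNA types.

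Named genes were NLK, then 12 in each direction with an average log2 CPM of at least 1 on the same side of both knockdown libraries: called genes first, by log2 fold change, filled up by smallest p. As no gene was called in T47D-TamR, all 12 were taken by p. For BT483 and the line difference the number was 4. Members of lists were to be those of largest log2 fold change, and the fixed genes were MAPK14, CCND1, MYC, ESR1, TFF1, GREB1 and PGR; other members named beside them were picked after their values were seen. Further genes met the rule and are not reported. Members and the 26 lists were chosen with earlier results of these data known.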

Additional observations from a re-analysis of the deposited data

Results flagged for a closer look

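The median log2 difference of 3 lists had one sign against both siRNAs in T47D-TamR and the other sign against both in BT483. The difference between the lines was not tested for these lists. Cholesterol synthesis genes had medians of 0.05 and 0.10 against type 1 and type 2 in T47D-TamR, and of -0.12 and -0.19 in BT483, a difference of 0.215 between the lines. Fatty acid synthesis genes had 0.05 and 0.11 in T47D-TamR and -0.28 and -0.27 in BT483, a difference of 0.461. Mitochondrially encoded genes had -0.18 and -0.03 in T47D-TamR and 0.13 and 0.28 in BT483, a difference of -0.254. In T47D-TamR 11 of the 13 were lower against type 1 and 7 against type 2. All genes tested had a median of -0.02 against either siRNA there, so the type 2 value lies near that of all genes.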

How the results depend on the processing

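No paired analysis was possible because each group has replicate 1 only; the siRNA types shared by the lines entered as a coefficient instead. In T47D-TamR the count of genes called was 0, and moved to 30 (12 higher, 18 lower) with an added siRNA coefficient, to 15 (5 higher, 10 lower) without a filter on low counts and to 1 (higher) with DESeq2. Leaving out a library gave 0 to 8 calls, 0 to 3 higher and 0 to 5 lower: 8 without T47D-TamR type 2, 1 without type 1, and 3 without either BT483 siRNA. In BT483 the 49 calls became 173 in an additive fit of 11 libraries, 672 with the siRNA coefficient, 473 without a filter, 0 with at least 10 counts in every library, 214 with DESeq2, 0 with limma, and 40 to 253 on leaving out a library. The line difference, with 0 calls, had 5, 255, 167 and 51 in the additive, siRNA coefficient, unfiltered and DESeq2 fits, 1 with upper quartile factors, 1 with length and GC offsets, and 0 to 96 on leaving out a library. The log2 fold change of ESR1 ran from -0.38 without type 1 to 0.27 without type 2, and that of MAPK14 from 0.20 without type 1 to -0.10 without type 2, with -0.013 in the additive fit. The cause of these moves was not tested. Of 584 values of 27 named genes under 22 alternatives, 581 kept the main direction and 16 passed the threshold. Of 208 list medians, 183 kept it. Depth leaves genes under 3 counts unmeasured, among them TFF1.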

Other observations

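Cytosolic ribosomal protein genes and nuclear oxidative phosphorylation genes had medians of opposite sign against type 1 and type 2. Mitochondrially encoded genes, whose transcripts are short and abundant too, had -0.18 and -0.03, the same sign against both. Cytosolic ribosomal protein genes had a median log2 difference of -0.33 between tamoxifen and type 1, with 30 of 36 genes lower, and of 0.22 between tamoxifen and type 2, with 1 of 36 lower. RPL38, of the large subunit, had 235 CPM with tamoxifen, against 636 CPM with type 1 and 205 CPM with type 2. Nuclear genes of oxidative phosphorylation had -0.28 against type 1 and 0.18 against type 2. In the fifth of genes with the shortest transcripts the medians were -0.12 and 0.09.

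Genes with a match to a seed of an siRNA in the 3′ untranslated part were compared with the rest as a description. The 1129 genes with a site for siRNA 1 had a median of 0.04 for tamoxifen minus type 1, and the 10897 without one -0.04. The 1480 genes with a site for siRNA 2 had a median of 0.08 for tamoxifen minus type 2, and the 10546 without one -0.03. Genes with sites had longer 3′ untranslated parts, with medians of 3428 bases against 1162 for siRNA 1 and 3017 against 1120 for siRNA 2.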
